A study of Drosophila melanogaster with 2 samples.

Results

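The ELAV family of Drosophila melanogaster comprises the genes elav, fne and Rbp9, which are 3 of the 13945 protein-coding genes on the chromosome arms examined. Binding of the transcription factor Onecut at these genes was described from peak summits, a summit being the position of highest signal that the authors' list gives for a peak. The genes were chosen by name, and a summit was assigned to a gene when it lay between 1000 bp upstream of the gene's start and the gene's end. By this rule 11 of the 6755 peaks in the conservative list, the list made from both biological replicates, belonged to the family: 3 at elav, 6 at fne and 2 at Rbp9.

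Onecut carries a cut domain and a homeodomain. The embryos came from a strain labelled onecut-GFP, with an insertion that targets the onecut gene, so that Onecut was made as a fusion with enhanced green fluorescent protein (eGFP). Whole embryos of 0 to 24 hours were used, chromatin was broken by sonication and precipitated with an antibody against GFP, and the 2 libraries are biological replicates of 1 group. No untagged or untreated group was used here, although a control alignment entered the authors' lists, so no comparison between conditions can be made and no statistical test was run. Since the embryos were whole and their ages pooled, a strong site in few cells and a weak site in many cannot be told apart.

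ELAV, FNE and RBP9 are RNA-binding proteins with RNA recognition motifs, related to the Hu proteins of vertebrates. ELAV is made in essentially all neurons from soon after their birth and is the standard marker of that cell type in the fly. It acts on U-rich stretches of nascent transcripts, where it directs neuronal alternative splicing and the use of distal polyadenylation sites, and FNE (found in neurons) can take over part of that work. RBP9 is known from the nervous system and from the female germ line. Onecut itself is a neuronal transcription factor in the fly, and the proteins of its family bind a short core, written ATYGAT, in which Y stands for C or T.

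The summits of elav lay at and just inside the 5′ end of the gene. The gene (FBgn0260400) occupies chrX:509235-523226 on the minus strand, and all coordinates are those of dm6. For each of the 3 summits the plus strand of a window of 50 bp on either side is given, because these were the highest peaks of the family; it was read from the Release 6 assembly of RefSeq. Capitals mark ATYGAT on either strand. The windows are chrX:523382-523482 for site 1, chrX:522428-522528 for site 2 and chrX:521772-521872 for site 3.
elav site 1: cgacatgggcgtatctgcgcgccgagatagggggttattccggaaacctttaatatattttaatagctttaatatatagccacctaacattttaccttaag
elav site 2: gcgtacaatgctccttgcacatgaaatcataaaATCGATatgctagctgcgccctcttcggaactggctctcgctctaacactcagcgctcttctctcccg
elav site 3: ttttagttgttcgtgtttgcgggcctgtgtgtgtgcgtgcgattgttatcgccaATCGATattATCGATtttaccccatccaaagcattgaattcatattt

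Site 2 holds 1 ATCGAT, a palindrome, which begins 17 bp to the left of the summit. Site 3 holds 2 copies of ATCGAT that begin 4 and 13 bp to the right of the summit. Site 1 holds neither form of the core, in its window or anywhere in its 414 bp peak.

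The gene fne (FBgn0086675) occupies chrX:12917477-12950417 on the plus strand. Of its 6 sites, the windows of sites 1, 2 and 5 are shown because they are those with a core: chrX:12920238-12920338, chrX:12922473-12922573 and chrX:12939260-12939360. They are written and marked in the same way.
fne site 1: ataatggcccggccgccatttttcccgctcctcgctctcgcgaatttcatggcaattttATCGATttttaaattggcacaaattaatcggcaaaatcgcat
fne site 2: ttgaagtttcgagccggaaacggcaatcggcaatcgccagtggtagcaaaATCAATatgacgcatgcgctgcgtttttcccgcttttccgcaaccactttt
fne site 5: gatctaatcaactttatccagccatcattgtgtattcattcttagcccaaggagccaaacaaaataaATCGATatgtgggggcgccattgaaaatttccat

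Sites 1 and 5 hold ATCGAT, which begins 9 and 17 bp to the right of the summit. Site 2 holds the other form, ATTGAT, on the minus strand, where its complement on the printed strand begins at the summit itself.

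The gene Rbp9 (FBgn0010263) occupies chr2L:2954762-2968434 on the plus strand. Its site 1 is given as the higher peak of a member without a core at either summit, with the window chr2L:2957741-2957841.
Rbp9 site 1: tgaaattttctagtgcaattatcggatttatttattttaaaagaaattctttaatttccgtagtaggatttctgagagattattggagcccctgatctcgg

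Of the 11 windows, 5 held ATYGAT, against 38.2% of all 6747 summit windows on the arms. ATCGAT was present in 4 of them, against 21.2% of all windows, and the single window with 2 or more cores, elav site 3, stood against 5.44%. The longest stretch shared by elav site 2 and fne site 5 was AAATCGATATG, on the same strand, and 0.341% of all windows held it on either strand. elav site 3 and fne site 1 shared TTATCGATTTT, present in 1.19% of all windows. Over the 55 pairs of windows the longest shared stretch had a median of 7 bp. The stretches were picked from these same windows, so their shares over all windows describe them and support nothing further. A match is a description of letters and does not by itself mark a bound base.

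**Figure D1:**
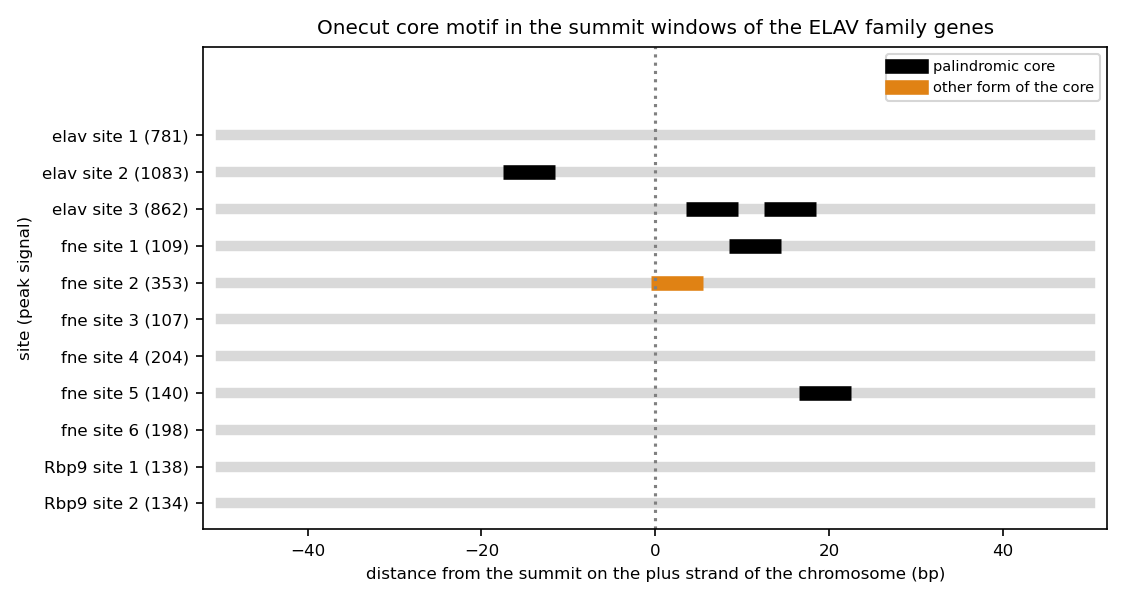
Position of the ATYGAT core in the windows of 50 bp on either side of the 11 summits, in bp from the summit (horizontal axis) for each site with its peak signal in brackets (vertical axis). Black bars are ATCGAT, orange bars are ATTGAT; cores appear at elav sites 2 and 3 and fne sites 1, 2 and 5 and begin within 17 bp of the summit.

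The peaks of elav were by far the highest of the family. In the conservative list the signal, the authors' measure of peak height on a scale that is not given, was 781.3 at site 1, 1083 at site 2 and 862.2 at site 3. The median peak of the list had 148.9, so the 3 sites stood 5.25, 7.27 and 5.79 times above it. They ranked 252, 117 and 204 of 6755 by signal, which places all 3 in the top 3.73% of the list. Only 1.08% of protein-coding genes had a highest summit at least as high as that of elav.

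The positions of the elav summits relate to its transcription start sites (TSS). Site 1 (chrX:523264-523677) lay 206 bp upstream of the first TSS. Site 2 (chrX:522245-522785) and site 3 (chrX:521644-522037) lay 748 and 1404 bp inside the gene, both in its first intron. A second TSS is annotated at 520285, and sites 2 and 3 were 2193 and 1537 bp upstream of it. The 3 summits spanned 1610 bp, with gaps of 954 and 656 bp. The list held 172 runs of 3 neighbouring summits within that span, and 1 of them, elav itself, had all signals at or above that of elav site 1; span and floor were taken from elav, so this places the cluster and supports nothing further.

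Both replicates held the 3 elav sites at nearly the same places in the order. In replicate 1 the signals were 360.6 at site 1, 459.1 at site 2 and 355.0 at site 3, and in replicate 2 they were 420.1, 646.2 and 518.7. Site 2 was the highest in each replicate, at rank 112 in replicate 1 and 116 in replicate 2. Sites 1 and 3 changed places: site 1 ranked 212 and site 3 ranked 221 in replicate 1, against 286 for site 1 and 199 for site 3 in replicate 2. The irreproducible discovery rate (IDR) is meant to be low for a peak whose place in the order repeats. In the list of 1 replicate it cannot measure repetition between the 2 replicates, as the IDR of the conservative list does. It was 1e-05 for all 3 sites in each replicate's list. That is the smallest value the deposited column takes, so it does not rank these sites further, and the authors' lists stop at an IDR of 0.01. The summits of the replicates lay within 22 bp of those of the conservative list. The replicate 1 list gives the interval of site 2 a further entry with a summit at 522678, a signal of 12.4 and rank 5116 of 5133, which makes 4 summits at elav there. This low entry also has an IDR of 1e-05.

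The gene arg, which encodes an arginase, runs on the plus strand across elav (chrX:509435-528028). All 3 elav sites therefore also lie within arg, which had 5 summits in all. None of the 3 was in an arg exon, and the annotated arg TSS was 12387 to 13997 bp away, against 206 to 1404 bp for the first elav TSS. The flanking genes also had peaks: svr, a carboxypeptidase gene, had 2 summits with a highest signal of 643.1, and CG4293 had 1 summit with 1138.

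The sites of fne were spread along the gene and lower. Their signals in the conservative list were 108.6 at site 1, 352.9 at site 2, 107.4 at site 3, 204.4 at site 4, 140.2 at site 5 and 198.0 at site 6. Site 2 ranked 1003 and was 2.37 times the list median. Sites 4 and 6 ranked 2213 and 2301, both above the median, while sites 5, 1 and 3 ranked 3655, 4933 and 4995 and were below it. All 6 fne sites were lower than the lowest elav site, and 7.82% of protein-coding genes had a highest summit at least as high as that of fne site 2.

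Sites 1 to 4 of fne (chrX:12920070-12920505, chrX:12922381-12922656, chrX:12923244-12923679 and chrX:12925879-12926106) lay in a long intron that runs from 12919710 to 12939014. They began 2811 bp past the first TSS and ended 8550 bp past it. Of the 11 annotated transcripts 4 span these sites, those from the start sites at the 5′ end of the gene. Whether all 4 have this exact intron was not examined. The rest of the intron holds a HMS-Beagle transposable element of 7057 bp in the reference genome, in which none of the 8 lists had a summit. How the authors placed reads from such repeated sequence is not given, so this lack of summits need not mean a lack of binding. Site 5 (chrX:12939092-12939527) was 793 bp past another TSS, at 12938517, and in an intron that runs from 12939250 to 12941719. Site 6 (chrX:12947765-12947948) lay in a 3′ UTR exon of 9 transcripts, 30378 bp from the first TSS. The gaps between neighbouring fne summits were 2235, 939, 2565, 13283 and 8545 bp, and no protein-coding TSS was nearer to any of them than one of fne itself. The flanking genes CG4645 and hec had no summit.

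**Figure D2:**
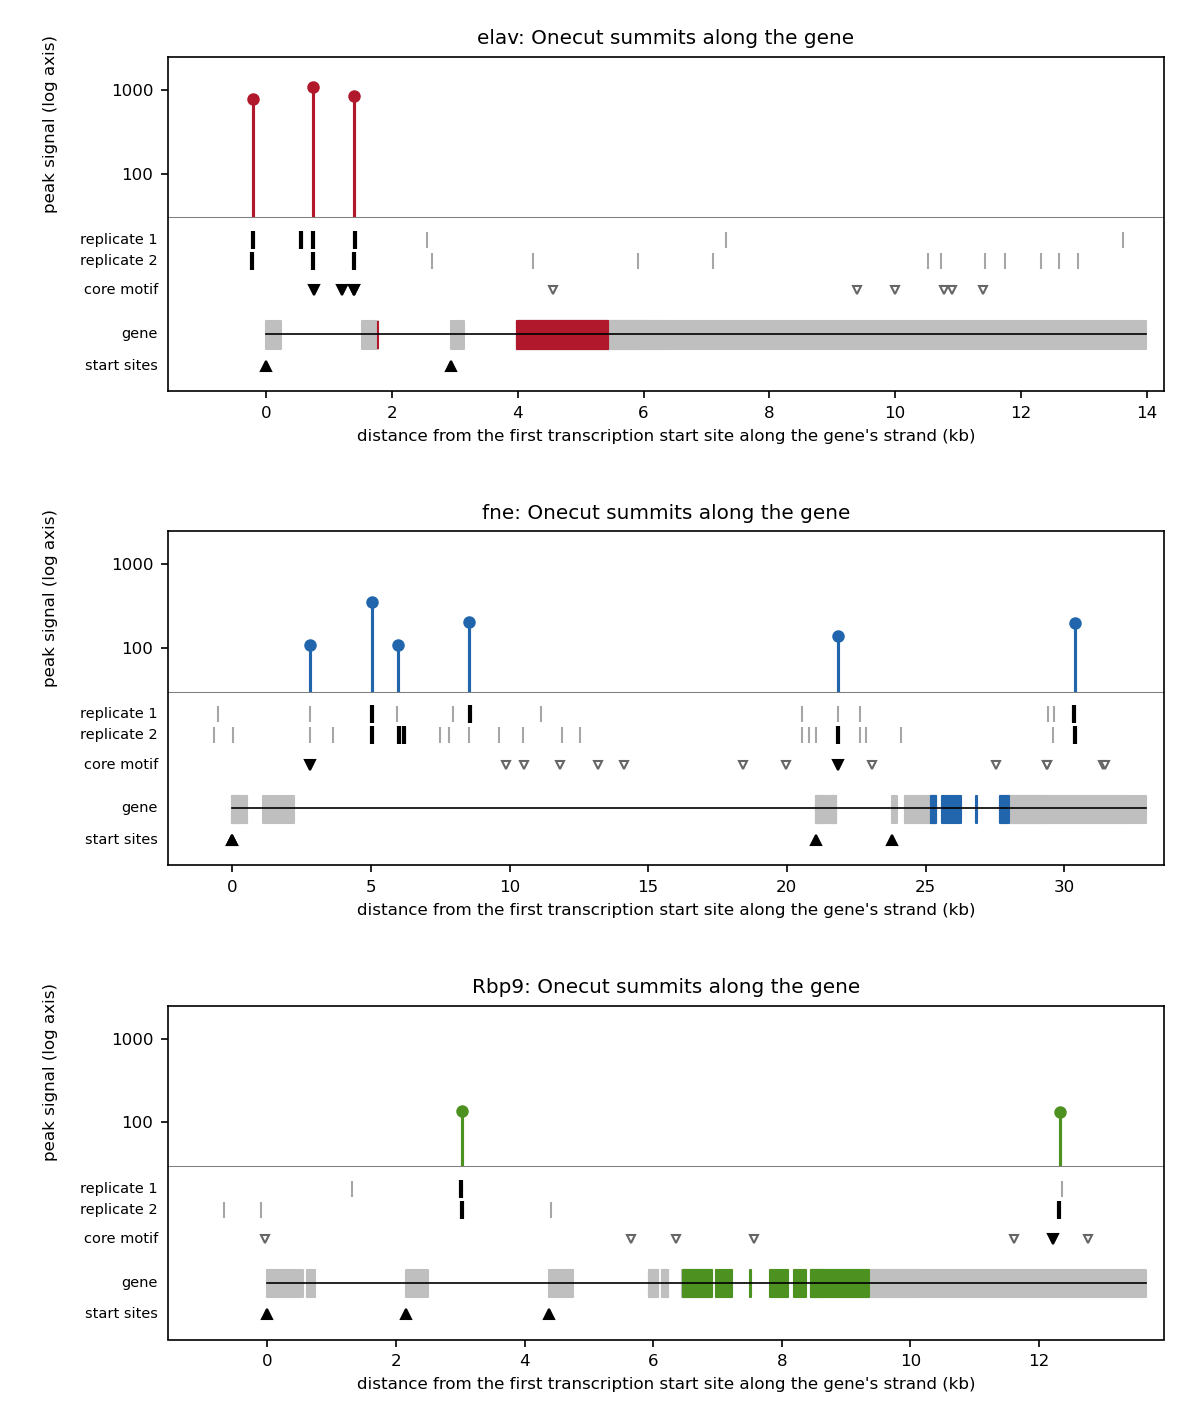
Peaks of the conservative list at elav, fne and Rbp9, with distance from the first TSS in the direction of transcription (horizontal axis) and peak signal on a log axis (vertical axis). Black ticks are summits of each replicate's thresholded list and grey ticks those of its ranked list alone; triangles under them are ATCGAT (filled where in a conservative peak), coloured boxes coding exons, grey boxes UTR exons, and upward triangles start sites. The 3 elav peaks stand between 781.3 and 1083 near the start, the 6 fne peaks run from 107.4 to 352.9 along the gene, and the 2 Rbp9 peaks are at 137.8 and 133.6.

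The fne sites differed in how they held between replicates. Site 2 had a signal of 107.4 in replicate 1 and 238.3 in replicate 2, and site 6 had 111.0 and 83.7 in the same order. Both passed the authors' threshold in each replicate. Site 4 had 105.0 in replicate 1, where its IDR was 9.48e-05, and 102.6 in replicate 2, where its IDR of 0.0313 missed the threshold. Site 5 passed in replicate 2 alone, with a signal of 103.0 and an IDR of 0.00205, against 37.4 and an IDR of 0.0126 in replicate 1.

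Site 3 of fne also passed in replicate 2 alone, with 60.4 and an IDR of 0.00835, against 48.5 and an IDR of 0.535 in replicate 1. Site 1 passed in neither replicate: its signal was 47.8 with an IDR of 0.143 in replicate 1 and 56.6 with an IDR of 0.0121 in replicate 2. It was kept in the conservative list with an IDR of 0.00223 between the replicates. The highest fne site therefore differed between replicates, being site 6 in replicate 1, at rank 1678, and site 2 in replicate 2, at rank 761. In replicate 1, however, sites 2 and 4 were close behind site 6, at ranks 1760 and 1827 of 5133. The signals of different lists are not on a common scale, so the ranks carry this comparison.

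The 2 sites of Rbp9 were close to the middle of the list. Site 1 (chr2L:2957573-2958008) had a signal of 137.8 and rank 3718, and site 2 (chr2L:2966880-2967315) had 133.6 and rank 3872. Both were just under the list median, at 0.925 and 0.897 times its value. A highest summit at least as high as that of Rbp9 was found for 21.5% of protein-coding genes.

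Site 1 of Rbp9 was in an intron, 880 bp past the TSS at 2956911 and 1356 bp upstream of the TSS at 2959147. It passed the threshold in each replicate, with signals of 58.9 and 81.0 and IDRs of 0.00188 and 0.00118 in replicates 1 and 2. Site 2 lay in the 3′ UTR of 1 of the 9 transcripts and 2247 bp beyond the end of the other 8. It passed in replicate 2 with 78.7 and an IDR of 0.00276, and missed the threshold in replicate 1 with 57.6 and an IDR of 0.329. The list of pooled data did not hold it, so that 10 of the 11 sites were in that list. Its nearest protein-coding TSS was not that of Rbp9 but that of Ts, which encodes thymidylate synthase, at 2540 bp; Ts had no summit by the same rule. The left neighbour lilli, which encodes a nuclear regulator of transcription, had 4 summits with a highest signal of 1162 and ended 355 bp before Rbp9. The right neighbour Rrp1, which encodes a DNA repair endonuclease, had 1 summit with a signal of 171.5.

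Over the family, 6 of the 11 sites passed the threshold in the lists of both replicates: elav sites 1 to 3, fne sites 2 and 6 and Rbp9 site 1. A further 1 passed in replicate 1 alone, 3 in replicate 2 alone and 1 in neither. The like shares over all 6755 conservative peaks were not computed, so these counts do not set the family apart from the list. The thresholded list of replicate 1 held 5133 peaks and that of replicate 2 held 6023. All 11 sites overlapped a peak in the ranked list of each replicate, which also holds peaks that missed the threshold, by at least 1 bp. The conservative list was made from both replicates, so this overlap is no independent sign that the sites repeat. In the ranked lists the summits were displaced by a median of 7 bp in replicate 1 and 2 bp in replicate 2, and by at most 45 bp. The 5 lowest-ranked sites, fne 1, 3 and 5 and Rbp9 1 and 2, all had a width of 436 bp, as did 54.5% of the list; the median signal of such peaks was 110.2, against 263.1 at other widths.

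**Figure D3:**
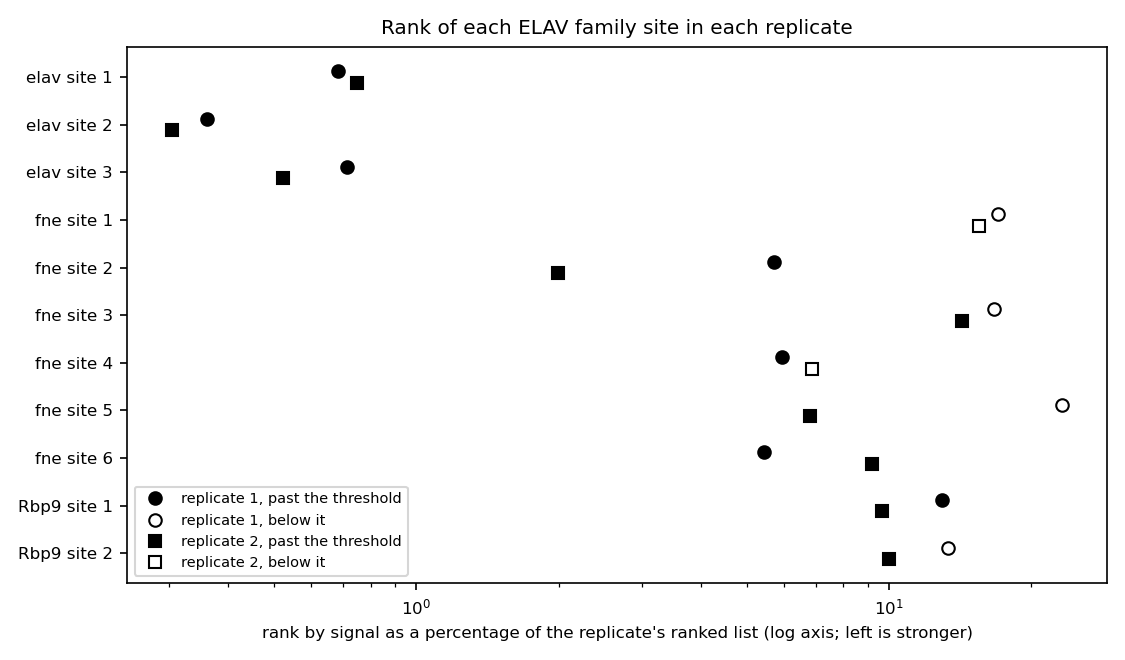
Rank by signal of the peak overlapping each of the 11 sites, as a percentage of the ranked list of each replicate (horizontal axis, log; sites on the vertical axis; circles replicate 1, squares replicate 2; filled symbols passed the threshold, open ones missed it). The elav sites lie between 0.304% and 0.749% in both replicates, and the fne and Rbp9 sites lie between 2.00% and 23.3%.

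All 3 genes had a summit in every list. For comparison, the share of protein-coding genes with at least 1 summit was 31.3% in the conservative list, 32.3% in the pooled list, 26.2% in replicate 1 and 28.6% in replicate 2. In the ranked lists it was 59.0% for replicate 1 and 60.8% for replicate 2. The members are long genes, between 13673 and 32941 bp. Among the 889 protein-coding genes within that range, 64.7% had a summit, so that the presence of a summit by itself sets the 3 genes little apart from genes of their length. The share was 26.9% for shorter genes and 73.9% for longer ones.

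fne had the most summits of the 3 genes. At least 2 summits, as at Rbp9, were found at 10.2% of protein-coding genes and at 38.2% of those of the members' length. At least 3, as at elav, were found at 4.63% of all genes and at 24.3% of those of like length. At least 6, as at fne, were found at 0.990% of all genes and at 3.15% of those in the same range of length. That range runs from the length of Rbp9 to that of fne, and its median gene has 19660 bp, against 32941 bp at fne. The 3.15% is therefore not a share among genes as long as fne. Per 10 kb of the region counted, the gene with its 1000 bp upstream, the density was 2.00 summits at elav, 1.77 at fne and 1.36 at Rbp9. A higher density was found at 18.1% of protein-coding genes for elav, 19.8% for fne and 22.6% for Rbp9. Genes of the members' length had a mean of 1.55 summits. By the highest summit, elav was placed 149, fne 1091 and Rbp9 2997 of the 4362 genes with a summit.

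**Figure D4:**
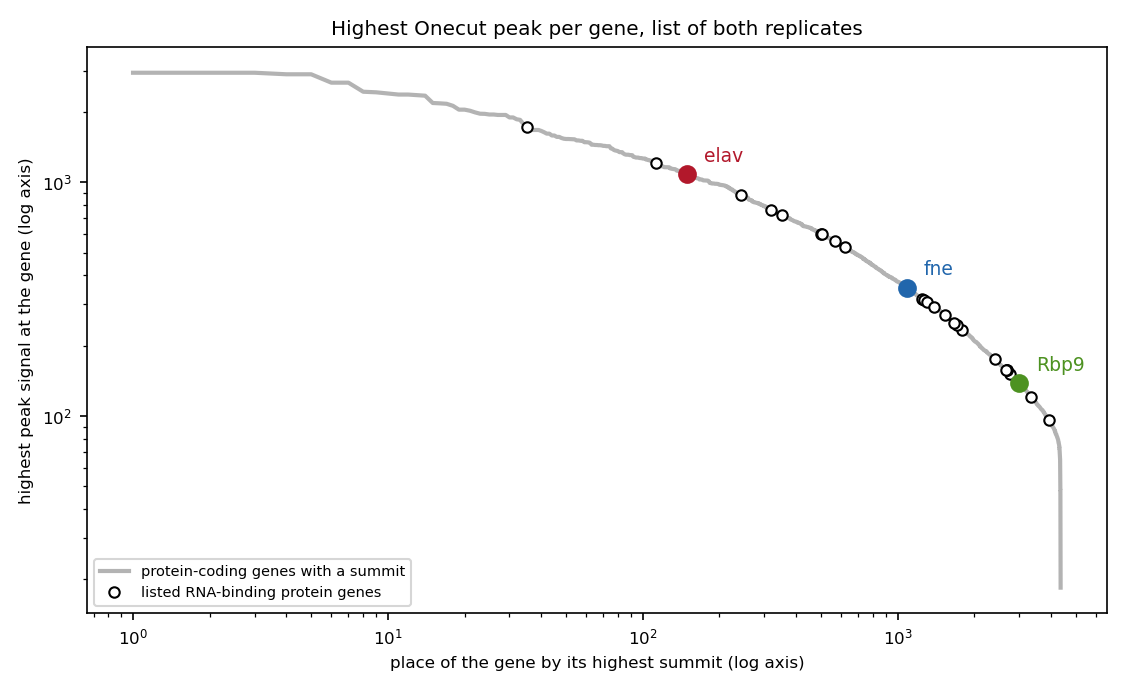
Highest peak signal at each of the 4362 protein-coding genes with a summit in the conservative list (vertical axis, log), ordered from high to low (horizontal axis, log), with the 3 family members in colour and the 24 listed RNA-binding protein genes with a summit as open circles. elav stands at place 149 with 1083, fne at 1091 with 352.9 and Rbp9 at 2997 with 137.8.

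By annotation, 8 of the 11 summits were in introns, 2 were in a 3′ UTR and 1 was upstream. Over the whole list 48.6% of summits lay in a gene and in none of its exons, and 1.56% lay in a 3′ UTR. The whole list also holds summits between genes. The rule for the family left out all but those within 1000 bp upstream, so these shares are not like for like. The 3′ UTR summits of fne (site 6) and Rbp9 (site 2) held no core in their windows, and Rbp9 site 2 had 1 ATCGAT elsewhere in its peak.

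Most copies of the core in the 3 genes lay outside peaks. From 1000 bp upstream to the gene end, elav held 10 copies of ATCGAT, of which 4 lay in a peak of the conservative list, fne held 15 with 2 in a peak, and Rbp9 held 7 with 1 in a peak. Together 21.9% of these copies lay in a peak, against 5.63% over all arms. Peaks covered 1349 of 14992 bp at elav, 1996 of 33941 bp at fne (5.88%) and 872 of 14673 bp at Rbp9 (5.94%), against 1.72% of the arms. None of the 14 copies of ATTGAT at elav and none of the 14 at Rbp9 lay in a peak, while 4 of 34 at fne did (11.8%), against 2.34% over all arms. The copies of both forms at fne include some in its transposable element, where a lack of peaks need not mean a lack of binding.

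elav site 1 was the site of the family with high signal and no core. Of the 300 highest peaks on the arms 72.7% had ATYGAT in the window, and elav site 1, at rank 252 of the list, was among the 82 without it. Of the other peaks 36.6% had it. The remaining motifs searched on both strands of the member windows were GATAA, in 4 windows against 23.5% of all, GAGAG, in 4 against 15.3%, and CACACAC, in 2 against 5.47%. GATAA can share letters with the core. None of the 11 windows held any of the other 6 motifs. Of all windows, 1.79% held TATCGATA, which contains the palindromic core, 5.60% held the E-box CAGCTG and 3.29% held TTGATC. GGTCACACT was in 0.904% of all windows, CAGGTAG in 0.534% and TGACGTCA in 0.296%. The GC content of the member windows ran between 31.7% and 56.4% with a median of 40.6%, against a median of 41.6% over all windows.

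Further peaks at the 3 genes missed the threshold. In the ranked list of both replicates elav had 3 further summits with signals of 25.5 to 50.7, fne had 9 with 20.2 to 60.9 and Rbp9 had 1 with 21.6. The highest of those at elav had its summit at 520598, in an intron 2628 bp past the first TSS, and that at fne had its summit at 12938028, which is also intronic. Both were above the median of 40.2 of that list. Their IDRs were 0.407 and 0.100, and in the ranked list of pooled data the same fne summit had an IDR of 0.0343, all above the threshold of 0.01.

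The family was set beside 28 other genes for RNA-binding proteins with roles in neurons, splicing, translation or RNA localization. Their list was written with earlier results of these data known, so the shares below describe it and support nothing further. Of the 28 genes, 24 had a conservative summit (85.7%), against 31.3% of all protein-coding genes. In replicate 1 the number was 22 (78.6%), against 26.2%, and in replicate 2 it was 24 (85.7%), against 28.6%. These are mostly long genes, 17 of them longer than fne, and of those 17 a summit was found at 16, against 73.9% of all protein-coding genes longer than fne. That class has no upper limit of length, and the listed genes in it run from 36409 to 281494 bp, so length is not matched there. Of the 3 as long as the members all 3 had a summit, against 64.7%, and of the 8 shorter ones 5 had, against 26.9%. The 5 with the highest peaks were shep at 1730, sm at 1213, larp at 878.9, Imp at 759.5 and brat, a translational repressor, at 727.6. In this list of 28 genes, shep and sm were the 2 with a peak above the highest of elav. Sxl, which encodes the splicing regulator of sex determination and is closely related to the ELAV family in its RNA recognition motifs, had 3 summits with a highest signal of 269.4, below fne and above Rbp9. The 4 without a summit, named after their values were seen, were Syp, nito, tra2 and nanos.

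Of 5 genes whose transcripts are known targets of the family, 2 had a summit (40.0%), a share near the 31.3% of all protein-coding genes. Nrg, which encodes the cell adhesion molecule neuroglian and whose transcript is spliced under control of ELAV, had 3 summits, the highest with a signal of 644.4, rank 364 and an ATCGAT in its window. emc, a target of RBP9 that encodes a helix-loop-helix inhibitor, had 2 summits with a highest signal of 233.6 and no core there. ewg and arm, which encode a transcription factor and the fly beta-catenin and are spliced under control of ELAV, and bam, a germ line differentiation gene and target of RBP9, had no summit in any of the 4 thresholded lists.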

How the data were processed

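Peak lists of Onecut-eGFP ChIP-seq from 2 biological replicates of whole embryos were used, in dm6 coordinates. Per the file headers (read-me texts deposited with the lists) the authors made ranked and IDR-thresholded lists from the alignments and a control alignment, for each replicate, for both replicates (conservative) and for pooled data. Aligner, peak caller, tool versions and read depth: not given in the sources used here. The depth and the precision it gives are therefore unknown. Peak height is the signal the authors deposited, of unstated scale, which was compared within 1 list. The authors deposited the −log10 of the IDR in the ranked lists, and no thresholded peak was below 2.00.

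Genes came from Ensembl release 115 and sequence from the RefSeq Release 6 assembly. Steps that use genes or sequence took the 6747 conservative peaks on the 6 arms. Motifs were matched on both strands of the summit base and 50 bp on either side. Python 3.11.15, pandas 2.3.3, numpy 2.4.6 and matplotlib 3.10.9 were used, and the counting was tested on simulated data. The alternatives were other lists, other IDR limits, other gene windows and other motif windows. The text names all members and their peaks, flanking or overlapping genes, the 5 listed RNA-binding protein genes with the highest peaks and all listed RNA targets; Sxl was added for its relation to the family. The members and lists were chosen with earlier results of these data known. With 1 group and peaks as the units no test was run, and peaks are not replicates. Proteins were not compared.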

Additional observations from a re-analysis of the deposited data

How the results depend on the processing

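All 3 genes kept a summit under every alternative tried: the pooled list, each replicate alone, IDR limits of 0.05 and 0.001, gene windows from 0 or 5000 bp upstream, and overlap of the peak by 1 bp. The count of 11 summits was 10 in the pooled list and between 8 and 14 under these settings. Leaving out replicate 2 gave 8 summits, and leaving out replicate 1 gave 10. Not all of these were among the 11 sites, of which 7 had a peak in the replicate 1 list and 9 in the replicate 2 list. The replicate 2 count includes a further fne entry with its summit at 12923678, a signal of 24.6 and rank 5857 of 6023. Counting entries that share an interval once gave 7 summits without replicate 2, an alternative chosen after seeing the data. Windows with ATYGAT numbered 5, and 3 to 4 when either replicate was left out; those with ATCGAT numbered 4, and 2 to 3. At an IDR of 0.001 or less the counts were 3 and 2, by construction among fewer sites (8). Whole peaks gave 7 and 5. The highest elav peak ranked 117, and 112 to 116 when either replicate was left out. The share of listed RNA-binding protein genes with a summit ran from 78.6% without replicate 2 to 85.7%. No paired analysis was possible because the series holds 1 group and no test. Of the 11 sites, 5 missed the threshold in a replicate or both, and the like share over the whole list was not computed. The read depth is unknown and its part in these misses was not tested.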

Other observations

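The longest stretch shared by any pair of family windows held no core: fne site 4 and Rbp9 site 1 shared TTAAAATAAATAA on opposite strands, which was found in 2 of the 6747 windows, these 2. elav site 2 and elav site 3 shared TAAAATCGATA on opposite strands, which 0.341% of all windows held. Both stretches were picked as the longest match of their pair, so their presence in these windows was fixed by the choice. How rare they are elsewhere therefore supports nothing further.

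Replicate 2 held more peaks that missed its threshold at the family than replicate 1: 11 at elav, 18 at fne and 3 at Rbp9, against 3, 10 and 2 in replicate 1. Its ranked list is also the longer, with 38160 peaks against 31012. How far that length accounts for the counts at the family was not tested.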
